A study of Mus musculus with 217 samples.

Results

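Single metaphase II oocytes of wild-type mice that drank resveratrol were compared at 10 months of age and at 6 months of age. The members were chosen by column name in the deposited count table: 14 oocytes named OWTR (10 months) and 14 named MWTR (6 months, with 1 column written MWTR23), together 28 of the 217 libraries of the series. Both groups came from wild-type females of the C57BL6/129 strain background, without the Tet2 knockout that other groups of the study carry. Both received resveratrol at 30 mg per L of drinking water, dissolved in DMSO, from the age of 2 months on, so that the older mice were also treated for longer. Females of both groups were superovulated with 5 IU PMSG and then 5 IU hCG, and oocytes were collected 14 h after hCG and freed of cumulus cells with hyaluronidase. Each library holds the polyadenylated RNA of 1 oocyte, made with Smart-seq2 and counted as reads per gene. The labels name no mouse for any oocyte, so the number of mice behind each group is not known, and strain background, mouse and age cannot be told apart.

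The metaphase II oocyte is arrested in the second meiotic division and is transcriptionally silent. It lives on messenger RNA made and stored while it grew in the follicle, much of which is degraded during maturation and after fertilisation. Resveratrol is a plant polyphenol known for its effects on sirtuins, the NAD-dependent deacylases, and on oxidative stress, both of which have been studied in the ageing ovary.

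Depth was close in both groups, with 4255147 to 4488944 counts per oocyte at 10 months and 4187483 to 4564677 at 6 months. A median of 16988 genes was detected per oocyte at 10 months (16564 to 18267) and 17126.5 at 6 months (15077 to 18625), or 16946.5 and 17011 after each oocyte was thinned to 4187483 counts. No pair of the 28 columns held identical values. The oocyte label was borne out by its markers: 19 of 20 oocyte markers were at 10 CPM or more in both groups (CPM, counts scaled to library size with TMM factors), and markers of other cells were sparse. The 20 cumulus and granulosa markers summed to a median of 64.6 CPM per oocyte at 10 months (49.4 to 87.8) and 62.3 at 6 months (45.4 to 89.0). Most of this was Cyp19a1, named after its values were seen, at 52.6 CPM in the 10-month sum and 48.7 in the 6-month sum. Of the 20 markers 11 had any count at 10 months and 12 at 6 months, with Ptx3, Foxl2, Slc38a3, Amhr2, Sult1e1 and Areg at 0 in both groups, Amh, Inha and Inhba at 10 months and Fshr and Lhcgr at 6 months. Of 17 leukocyte markers, summed to a median of 28 CPM (22.7 to 195) and 25.3 CPM (16.4 to 40.1), Cx3cr1 had no counts in either group and Cd74, Lyz2, C1qa, C1qc, Tyrobp and Adgre1 none at 6 months. The 4 globin genes of the erythrocyte list had no counts in either group.

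The oocytes of the 2 ages separated completely. On the first principal component of 6997 genes, which carried 39.3% of the variance, the 6-month oocytes lay between -28.9 and -16.4 and the 10-month oocytes between 15.6 and 33.5. Pearson correlations of log2(CPM + 1) across these genes, which are not independent of each other, had a median of 0.898 over the 196 pairs of oocytes of different age (0.861 to 0.930). Within an age the oocytes also split by the number before the dot of their column names, called column sets here (OWTR1 and OWTR2 with 7 oocytes each, MWTR1 with 9 and MWTR2 with 4). The sources used here do not say what these numbers stand for. Pairs of the same set had medians of 0.957 at 10 months and 0.966 at 6 months, against 0.938 and 0.944 for pairs of the same age from different sets. Over 7381 genes at 10 CPM or more in either sum, the SD of log2(CPM + 1) over oocytes had a median of 0.343 at 10 months and 0.315 at 6 months, and was larger at 10 months for 4340 genes (58.8%).

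**Figure D1:**
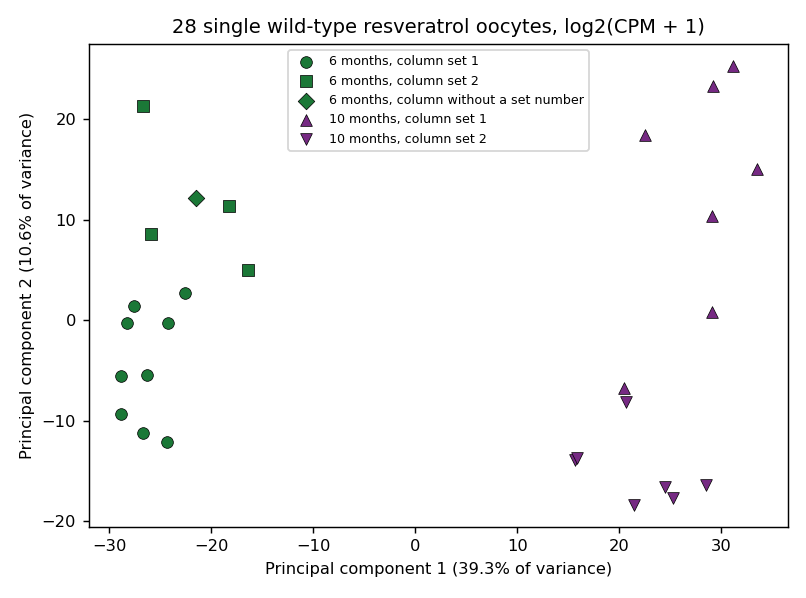
Principal components 1 and 2 of the 28 oocytes (log2(CPM + 1), 6997 genes); each point is an oocyte, colour gives the age and shape the column set. The 6-month oocytes lie at or below -16.4 on component 1 and the 10-month oocytes at or above 15.6.

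Of the 2 groups, the 6-month oocytes stood farther from the rest of the series. With the counts of each group summed, 363 of 7277 genes (4.99%) differed past 2-fold between the 6-month resveratrol sum and the 6-month wild-type control sum. The 10-month resveratrol sum differed past 2-fold from its own wild-type control in 100 of 7227 genes (1.38%), and from the 6-month wild-type control in 99 of 7261 (1.36%). The sum nearest to the 6-month resveratrol oocytes by this count was that of the 2-month wild-type oocytes, with 314 of 7282 genes (4.31%) past 2-fold, whereas 615 genes separated the 2-month from the 10-month resveratrol sum. For the 2-month wild-type oocytes the labels disagree, with Tet2 knockout as their genotype but wild type in their titles, which decided the group here. The age differences below are all set against the 6-month resveratrol sum, which stood apart in this way.

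**Figure D2:**
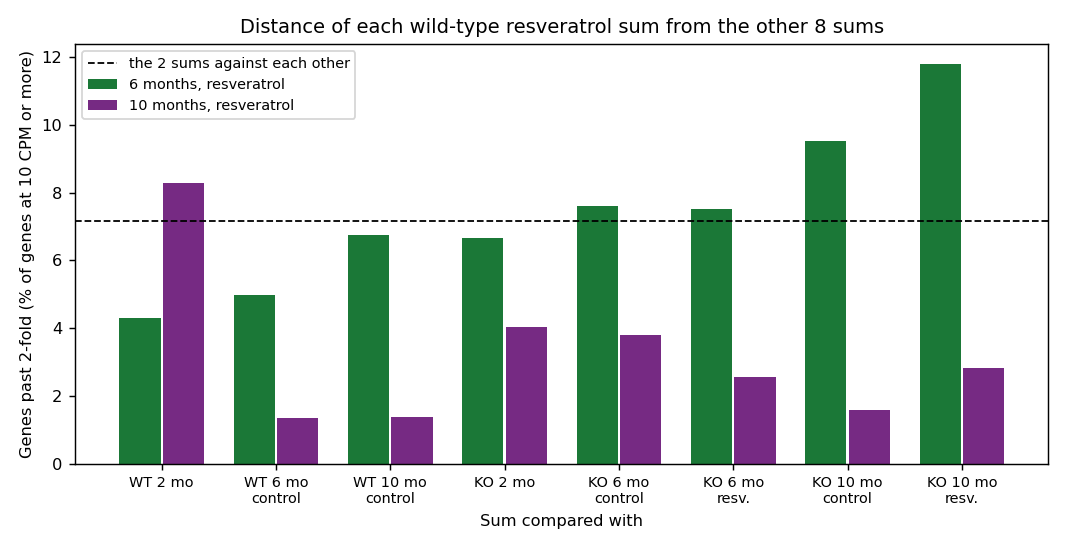
Share of genes at 10 CPM or more that differed past 2-fold between a wild-type resveratrol sum (green, 6 months; purple, 10 months) and each of the other 8 group sums, with the share between the 2 sums as the dashed line at 7.15%. The purple bars are lower than the green bars for 7 of the 8 sums, the exception being the 2-month wild-type sum.

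Between 10 and 6 months, 528 of 7381 genes (7.15%) differed past 2-fold in the ratio of sums, 279 higher at 10 months (3.78%) and 249 lower (3.37%). The median log2 ratio of all 7381 was -0.02. With 1 sum per group this count carries no replicate check. The count was 516 to 560 when any 1 oocyte was left out and 549 to 701 when any 1 column set was left out. All 4 ratios between a 10-month and a 6-month column set were past 2-fold for 266 of 7381 genes (3.6%), among them 177 of the 279 and 88 of the 249. The 14 oocytes of 1 age did not overlap with the 14 of the other for 280 of 7381 genes (3.79%), 91 higher and 189 lower at 10 months, of which 150 were also past 2-fold. Where the 2 sums lay among the other 8 sums differed: for 275 of the 528 genes (52.1%) the 6-month sum alone was outside the range of the other 8, for 68 (12.9%) the 10-month sum alone, for 78 both and for 107 neither. Over all 7381 genes these shares were 22.6% for the 6-month sum alone and 12% for the 10-month sum alone.

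The test used here borrowed the spread of the other groups, since each group entered as 1 sum. The 10 group sums of this strain were fitted with age, genotype and treatment and a mean of their own for the 2 sums compared, so that the departure of the other 8 sums from additivity served as the error, with 3 residual degrees of freedom (edgeR quasi-likelihood, adjusted over 22239 genes). By this test 12 genes rose from 6 to 10 months (0.054% of genes tested) and 0 fell, with 2450 at an unadjusted p under 0.05 and 527 past the threshold by DESeq2. The count was 274 without the wild-type 2-month sum, 277 without the knockout 2-month sum and 273 without both. It was 23 without the 6-month wild-type controls, 7 without the 6-month knockout controls, 3 without the 10-month wild-type controls and 4 without the 10-month knockout controls. In 11 of the 12 the 6-month sum was below all other 8 sums, and in 8 the 10-month sum was inside their range.

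Pnpla3, which encodes a lipid droplet acylhydrolase (chromosome 15, 84167837 to 84187236, plus strand, GRCm38), was at 0.913, 1.89 and 4.48 CPM in the lowest, median and highest of the 14 oocytes at 6 months. At 10 months it was at 70.2, 98.1 and 120 CPM, so every 10-month oocyte was above every 6-month oocyte. The ratio of sums was 47.1 (95% counting interval 39.5 to 57.1; log2 5.56, SE 0.36, adjusted p = 0.00266 in edgeR), and Pnpla3 rose by this test. The 4 column sets held 1.97 and 1.52 CPM at 6 months and 102 and 97.6 at 10 months. The other 8 sums ranged from 57.1 CPM in 2-month wild-type oocytes to 176 in 10-month wild-type controls. In C57BL6 controls, counted in a separate table, Pnpla3 was at 2.6 CPM at 6 months and 14.3 at 10 months. The level of the 6-month resveratrol sum, 2.04 CPM, was thus closest to that of the 6-month C57BL6 oocytes.

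Trim59, a tripartite motif E3 ubiquitin ligase (chromosome 3, 69035288 to 69044755, minus strand), was at 7.13, 14.3 and 21.2 CPM at 6 months and at 65.5, 176 and 383 at 10 months (lowest, median and highest oocyte). It rose 14.1-fold (13.1 to 15.1; log2 3.81, SE 0.40, adjusted p = 0.0368 in edgeR), with no overlap between the ages. Car10, a carbonic anhydrase-related protein that lacks catalytic activity (chromosome 11, 93098028 to 93601749, plus strand), was at 1.64, 4.64 and 9.36 CPM at 6 months and at 23.9, 48.0 and 91.5 at 10 months. Its rise was 10.7-fold (9.47 to 12.1; log2 3.42, SE 0.34, adjusted p = 0.0368 in edgeR), again without overlap. The gene listed as a3697, for which the annotation used here gives no position, went from a median of 1.06 CPM (0 to 5.93) to 28.6 (11 to 49.8). Its log2 ratio was 4.03 (SE 0.33, adjusted p = 0.0114 in edgeR), and like Pnpla3 it was low in C57BL6 controls (0.896 CPM at 6 months and 6.03 at 10 months). Trim59 and Car10 were not low in C57BL6 controls, with Trim59 at 328 and 213 CPM and Car10 at 40.5 and 69.3 at 6 and 10 months. Without column set OWTR2 the log2 ratio of Trim59 was 3.09, and without MWTR1 that of a3697 was 4.8. Ptpro, a receptor-type tyrosine phosphatase (chromosome 6, 137252319 to 137463233, plus strand), had 22 counts in all 14 oocytes at 6 months, with a median of 0.351 CPM, against 17.3 CPM (10.6 to 26.0) at 10 months. In C57BL6 controls it was at 21.2 CPM at 6 months and 19.3 at 10 months. Its ratio of sums was 46.7 (31.4 to 76.4; log2 5.54, SE 0.62, adjusted p = 0.0452 in edgeR).

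Of these 5, the call of Pnpla3 held without each of the other 8 sums in turn, while the others were lost without at least 1 of them. Without the 10-month wild-type control sum the adjusted p was 0.122 for Ptpro, 0.108 for Car10, 0.0551 for Trim59 and 0.079 for a3697. Without the 10-month knockout control sum it was 0.0819 for Ptpro and Car10 and 0.0512 for a3697, and without the 10-month knockout resveratrol sum 0.121, 0.104 and 0.121 for Ptpro, Car10 and Trim59. Without the 6-month knockout resveratrol sum these 3 were at 0.112, 0.0978 and 0.112, and without the 6-month knockout control sum Ptpro and Car10 were at 0.0582 and 0.0518. The other 7 genes that rose, named after their values were seen, included Topbp1, a scaffold of the DNA damage checkpoint (2.68 to 24.7 CPM, log2 3.2), Pnrc1, a nuclear receptor coactivator (6.23 to 52.4 CPM, log2 3.07), and Aim2, a cytosolic DNA sensor. Aim2 had no counts at 6 months and 2.95 CPM at 10 months, which was at least 58.2-fold higher against a floor of 3 counts over the group. The remaining 4 were genes named after genomic clones, which have no position here: RP23-419G22.6 (no counts against 37.3 CPM, at least 737-fold higher), RP23-23A6.7 (log2 5.04), RP23-290B5.9 (4.91) and RP23-159L16.7 (4.94).

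For Coro2b, Arid5b and Cdh20, 3 of the 4 largest named ratios higher at 10 months, the 2-month wild-type sum was near the level of the 6-month resveratrol sum. Coro2b encodes a coronin that binds actin filaments (chromosome 9, 62419492 to 62537044, minus strand). It was at 0, 0.357 and 1.63 CPM in the lowest, median and highest oocyte at 6 months and at 33.6, 65.5 and 99.8 at 10 months. The ratio was 121 (86.9 to 180; log2 6.92, adjusted p = 0.345 in edgeR). Coro2b was at 0.874 CPM in 2-month wild-type oocytes and at 57.2 to 91.7 in the other 7 sums. Arid5b encodes a DNA-binding protein that works with a histone demethylase (chromosome 10, 68092520 to 68278740, minus strand). It was at 1.24, 3.63 and 6.39 CPM at 6 months and at 94.8, 213 and 525 at 10 months, a ratio of 70.6 (62.0 to 81.2; log2 6.14, adjusted p = 0.360). It was at 3.35 CPM in 2-month wild-type oocytes and at 157 to 286 in the other 7 sums. Cdh20, a cadherin (chromosome 1, 104768529 to 104995481, plus strand), was at 0, 0 and 0.965 CPM at 6 months and at 5.87, 9.97 and 20.1 at 10 months (log2 6.25, adjusted p = 0.390), with 0.148 CPM in 2-month wild-type oocytes and 9.12 to 15.6 in the other 7 sums. In C57BL6 controls at 6 and 10 months, Coro2b was at 152 and 94.5 CPM, Arid5b at 482 and 447 and Cdh20 at 11.6 and 7.84. None of the 3 overlapped between the ages. Without set MWTR1 log2 was 7.75 for Coro2b and 7.26 for Cdh20, and without OWTR2 it was 5.49 for Arid5b. In the fit without the 2-month wild-type sum, log2 was 6.93, 6.14 and 6.32 for Coro2b, Arid5b and Cdh20. The SE of Coro2b was 2.15 with that sum and 0.388 without it. These genes were grouped here by the departure of that sum, so the fit without it cannot serve as support for them.

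The promoters of Coro2b, Arid5b and Cdh20, the genes near absence in the same 2 sums, are shown with that of Pnpla3, which was low in 1 of them, because these genes were among the largest ratios higher at 10 months and did not overlap between the ages. The sequences are the 250 bases upstream of a RefSeq transcript start (GRCm38.p6), 5′ to 3′ on the gene's strand, with CG dinucleotides, the sites of DNA methylation, in capitals. Coordinates are chr9:62537045-62537294 (minus strand) for Coro2b, chr10:68278727-68278976 (minus) for Arid5b, chr1:104768270-104768519 (plus) for Cdh20 and chr15:84167566-84167815 (plus) for Pnpla3.
Coro2b: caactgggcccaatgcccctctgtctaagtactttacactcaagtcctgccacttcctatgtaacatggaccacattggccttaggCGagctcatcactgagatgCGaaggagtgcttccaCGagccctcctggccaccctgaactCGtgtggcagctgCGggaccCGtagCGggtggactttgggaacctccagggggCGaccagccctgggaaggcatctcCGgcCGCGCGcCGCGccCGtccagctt
Arid5b: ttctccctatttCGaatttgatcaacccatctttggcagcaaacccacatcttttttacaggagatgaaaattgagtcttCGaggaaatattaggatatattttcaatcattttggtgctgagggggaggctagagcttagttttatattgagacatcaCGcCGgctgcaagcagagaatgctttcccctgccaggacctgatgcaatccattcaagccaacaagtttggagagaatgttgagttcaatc
Cdh20: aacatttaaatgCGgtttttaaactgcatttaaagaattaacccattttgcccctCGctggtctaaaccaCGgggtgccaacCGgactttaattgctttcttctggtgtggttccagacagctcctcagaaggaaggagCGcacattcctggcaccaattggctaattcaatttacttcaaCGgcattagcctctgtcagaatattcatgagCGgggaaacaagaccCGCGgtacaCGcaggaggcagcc
Pnpla3: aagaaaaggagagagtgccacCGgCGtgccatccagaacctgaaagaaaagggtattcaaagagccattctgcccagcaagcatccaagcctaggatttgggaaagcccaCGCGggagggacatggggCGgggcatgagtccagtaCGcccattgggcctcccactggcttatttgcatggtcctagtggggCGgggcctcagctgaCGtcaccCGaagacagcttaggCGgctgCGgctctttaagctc
They held 15, 4, 10 and 11 CG dinucleotides in the same order, against a median of 6 over the 32851 RefSeq promoter windows of this length, several of which can belong to 1 gene. The GC box GGGCGG was found on either strand in the Pnpla3 window alone of the 4, and in 32.7% of all windows. The letters TATAAA were found in the Arid5b window alone (12.4% of all windows), and CCAAT in the windows of Coro2b, Cdh20 and Pnpla3 (33.8%). These matches describe the letters only.

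Cd300c, a receptor of myeloid cells (chromosome 11, 114956116 to 114969157, minus strand), was at 0, 0 and 0.699 CPM at 6 months and at 11.6, 17.3 and 25.7 at 10 months. Its ratio of 122 (65.4 to 300) rested on 8 counts in the 6-month sum, and its adjusted p was 0.0515 in edgeR. The other 8 sums ranged from 2.23 CPM in 10-month knockout resveratrol oocytes to 20.2 in 10-month wild-type controls. C57BL6 controls held 28.6 CPM of Cd300c at 6 months and 17.9 at 10 months. Zswim1 (zinc finger SWIM domain, chromosome 2, 164822686 to 164826871, plus strand) was at 0, 1.53 and 3.1 CPM at 6 months and at 24.4, 36.9 and 54.5 at 10 months (log2 4.57). Spata25 (164826389 to 164828537, minus strand), a gene named for spermatogenesis, was at 0, 0.467 and 0.913 CPM and at 6.32, 9.38 and 16.4 CPM (log2 4.94). The 2 genes overlap on opposite strands from 164826389 to 164826871. Without a stated strand setting, reads in this shared stretch cannot be told apart. The adjusted p-values of Zswim1 and Spata25 were 0.141 and 0.153 in edgeR.

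**Figure D3:**
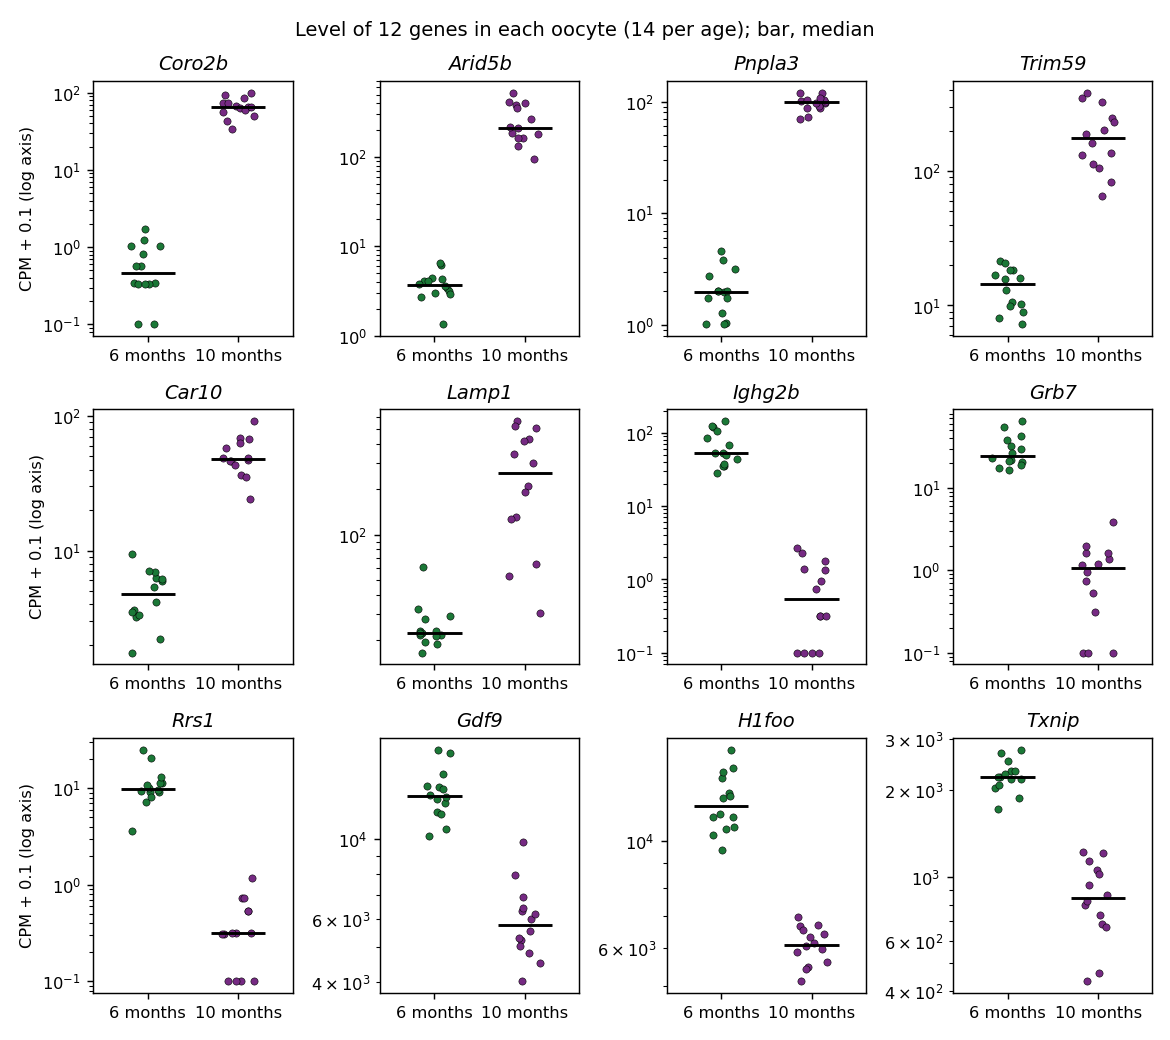
Level of 12 genes in each of the 14 oocytes per age (CPM + 0.1, log axis), with the median as a bar. All genes shown are separated without overlap between 6 months (green) and 10 months (purple), except Lamp1, whose 10-month oocytes reach down to 30.3 CPM while a 6-month oocyte lies at 60.9.

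Among the largest ratios lower at 10 months, 3 were immunoglobulin heavy chain constant genes of chromosome 12, none of which passed the test on 10 sums. Ighg2b (113302965 to 113307933, minus strand) was at 28, 52.9 and 144 CPM in the lowest, median and highest oocyte at 6 months and at 0, 0.435 and 2.58 at 10 months (log2 -6.44, adjusted p = 0.377 in edgeR). Ighg3 (113356224 to 113361232, minus strand) was at 11.9, 20.8 and 36 CPM at 6 months, and all 14 oocytes of 10 months together held 3 counts, a ratio of 425 with a counting interval of 169 to 2410. Ighg1 (113325240 to 113330523, minus strand) was at 27.7, 53.7 and 82.3 CPM at 6 months and at 2.16, 4.21 and 13.7 at 10 months (log2 -3.13, adjusted p = 0.269). Without set OWTR2 log2 was -8.14 for Ighg3 (-8.73 with all oocytes), and without MWTR1 it was -7.17 for Ighg2b. The ages did not overlap for any of the 3, and every 6-month oocyte held all 3 transcripts. Their sequences are near-identical in places, so the split of reads among them is uncertain. Ighg2b was at 0.465 and 0.841 CPM in the 6-month and 10-month wild-type controls, at 43.8 CPM in 2-month wild-type oocytes, at 18.7 to 30.7 in the 5 knockout sums and at 84.3 and 47.6 in C57BL6 controls. Beside these, the 17 leukocyte markers summed to at most 40.1 CPM in any 6-month oocyte, Laptm5 alone of them reached 10 CPM in either sum (7.22 CPM at 6 months, 13.3 at 10 months, log2 0.88), and Cd74 had no counts in the 6-month oocytes. This marker list holds no gene specific to antibody-producing cells, and the source of the immunoglobulin transcripts was not tested.

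Btla, an inhibitory receptor of lymphocytes (chromosome 16, 45224315 to 45257670, plus strand), was at 24.0, 38.5 and 77.4 CPM at 6 months and at 0, 0.537 and 2.58 at 10 months (log2 -5.68, adjusted p = 0.433 in edgeR). Its level scattered over the other sums, from 0.593 CPM in 6-month wild-type controls to 37.8 in 2-month wild-type oocytes. Rrs1, a ribosome biogenesis regulator (chromosome 1, 9545408 to 9547455, plus strand), was at 3.53, 9.78 and 25.2 CPM at 6 months and at 0, 0.215 and 1.07 at 10 months (log2 -5.16, adjusted p = 0.387). Grb7, an adaptor of receptor tyrosine kinases (chromosome 11, 98446394 to 98455373, plus strand), was at 16.4, 24.5 and 64.8 CPM and at 0, 0.970 and 3.74 CPM (log2 -4.89, adjusted p = 0.385). Sec16b, a protein of endoplasmic reticulum exit sites (chromosome 1, 157506728 to 157568425, plus strand), was at 12.5, 20.1 and 28.3 CPM and at 0.217, 1.26 and 2.56 CPM (log2 -3.98, adjusted p = 0.380). None of these 4 overlapped between the ages, and without set OWTR2 log2 was -5.53 for Grb7. Rrs1 stood at 20.7 CPM, Grb7 at 53.4 and Sec16b at 17.2 in 2-month wild-type oocytes, and at 0.354 to 0.618, 0.881 to 2.00 and 0.842 to 1.73 CPM in the other 7 sums. In the fit without the 2-month wild-type sum log2 was -5.19, -4.9 and -3.99 for Rrs1, Grb7 and Sec16b. That sum is the one that departs at these genes, so the fit without it cannot serve as support for them. C57BL6 controls held Sec16b at 19.3 and 18.6 CPM but Rrs1 at 0.368 and 0.196 and Grb7 at 1.22 and 0.784, so they sided with the 6-month oocytes for the first gene and with the 10-month oocytes for the other 2. Gdpd3, a glycerophosphodiester phosphodiesterase (chromosome 7, 126766334 to 126775649, plus strand), was at 3.06, 11.1 and 24.2 CPM and at 0.415, 1.29 and 3.41 CPM, with overlap (log2 -3.11, adjusted p = 0.141).

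**Figure D4:**
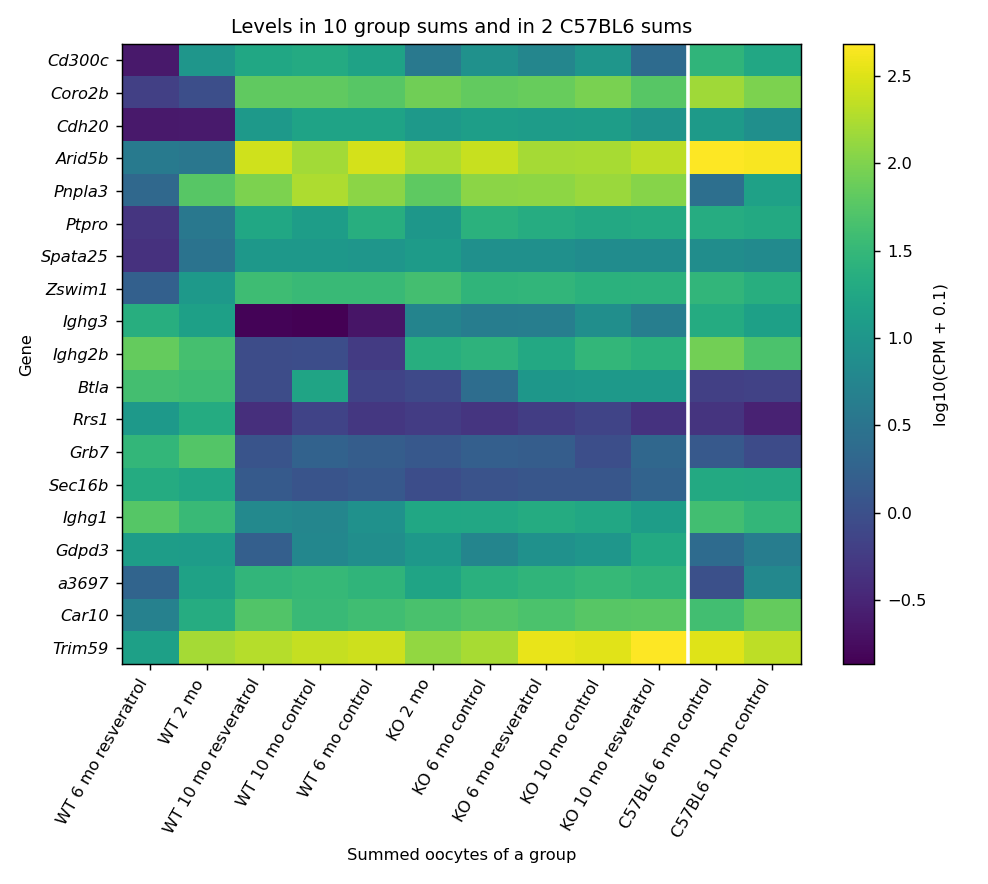
Level (log10(CPM + 0.1), colour) of the 16 largest differences and of 3 further genes with the lowest p in the 10 group sums, with 2 C57BL6 control sums right of the white line. For Coro2b, Cdh20, Arid5b, Rrs1 and Grb7 the first 2 columns, the 6-month resveratrol and the 2-month wild-type sums, share a level that differs from the other 8 columns of the C57BL6/129 background.

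Some of the genes past 2-fold lay beside each other. Of 6379 genes at 10 CPM or more with a position, 424 (6.65%) were past 2-fold, and of the 293 whose nearest measured neighbour within 100 kb was past 2-fold, 44 (15%) were so themselves, 41 of them in the same direction as the neighbour. Many of these neighbours overlap, which can make them share reads. Examples, chosen after their values were seen, are Lamp1 and Grtp1 on chromosome 8 (log2 3.45 and 3.00), Srsf2, Mettl23 and Mfsd11 on chromosome 11 (3.94, 1.57 and 2.25), Zfp708 and Rslcan18 on chromosome 13 (2.82 and 1.75), and the histone genes Hist1h2bf and Hist1h2bg (-2.93 and -2.54). Mapk3 and Gdpd3, 515 bases apart on chromosome 7, were past 2-fold in opposite directions, Mapk3 higher and Gdpd3 lower.

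Among the products that the oocyte secretes to its follicle, Gdf9 was lower at 10 months. Gdf9 (growth differentiation factor 9; chromosome 11, 53431023 to 53437904, plus strand) was at 10200, 13200 and 17800 CPM in the lowest, median and highest oocyte at 6 months and at 4020, 5770 and 9830 at 10 months. No 10-month oocyte reached the lowest 6-month oocyte, and the ratio was 2.25 (2.24 to 2.25; log2 -1.17, SE 0.20, adjusted p = 0.124 in edgeR), which did not pass the test. Without set MWTR1 its log2 ratio was -0.99, just under 2-fold. Gdf9 was also lower at 10 months in wild-type controls (log2 -0.61), knockout controls (-0.409) and knockout resveratrol oocytes (-0.718), but not in C57BL6 controls (0.232). The 6-month resveratrol sum of Gdf9, at 13500 CPM, was above all other sums, of which the highest was the 2-month wild-type sum at 11000. Its partner Bmp15 (bone morphogenetic protein 15) was at 5760 CPM (3490 to 6850) and 4290 CPM (2600 to 5740), with overlap (log2 -0.35, adjusted p = 0.525). Of the 6 measured genes of the zona pellucida and growth factor list, 0 were higher and 1 lower past 2-fold, Gdf9, and the median log2 ratio was -0.39, beside -0.02 over all genes at 10 CPM or more. Of all 7381 such genes 3.78% were higher and 3.37% lower past 2-fold. The zona pellucida genes Zp1, Zp2 and Zp3 had log2 ratios of -0.19, -0.51 and -0.44.

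The 20 oocyte markers summed to 44000, 49800 and 55600 CPM in the lowest, median and highest oocyte at 6 months and to 28200, 31900 and 36100 at 10 months, without overlap. The medians of the other 8 groups lay between 35100 and 42300 CPM, so the 6-month group was above and the 10-month group below all of them. Most of the drop from 6 to 10 months came from Gdf9 and H1foo. In the sums Gdf9 went from 13490 to 6008 CPM and H1foo from 12100 to 6089. Of the 19 markers at 10 CPM or more 14 were lower and 5 higher, with a median log2 ratio of -0.35, and 1 was past 2-fold in each direction, Gdf9 and Ooep. Over all 7381 genes 3784 were lower and 3597 higher, with 3.37% lower and 3.78% higher past 2-fold. H1foo, the linker histone of the oocyte (chromosome 6, 115944938 to 115950236, plus strand), was at 9590, 11800 and 15500 CPM at 6 months and at 5110, 6100 and 6950 at 10 months, without overlap (log2 -0.99, SE 0.20, adjusted p = 0.179 in edgeR).

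The subcortical maternal complex, an assembly beneath the oocyte's membrane that the embryo needs for its first cleavages, had the lowest median of the lists with 5 or more measured members, at a log2 ratio of -0.68. Of its 8 measured genes 7 were lower at 10 months and 1, Ooep (named after its values were seen), was higher past 2-fold at 627 against 218 CPM (log2 1.53, adjusted p = 0.480 in edgeR). Over all 7381 genes 3784 were lower and 3597 higher, and 279 (3.78%) were higher past 2-fold. The lower members included Zbed3, with a median of 27800 CPM per oocyte (20800 to 33200) at 6 months and 16400 (13300 to 23000) at 10 months (log2 -0.68, adjusted p = 0.217), and Nlrp2, with 115 (72.1 to 152) and 61.3 CPM (41.4 to 87.2; log2 -0.92, adjusted p = 0.237). Both overlapped between the ages. The same 8 genes had medians of -0.23, 0.05 and 0.11 between 10 and 6 months in wild-type controls, knockout controls and knockout resveratrol oocytes. In C57BL6 controls their median was 0.396, in the opposite direction. By edgeR 0 members of this list passed the test, with 3 at an unadjusted p under 0.05, and 1 by DESeq2. The same held for all 23 lists, with 0 of 541 genes past the threshold by edgeR, 72 at an unadjusted p under 0.05, and 6 higher and 15 lower by DESeq2. Over all 22239 genes tested, 2450 were at an unadjusted p under 0.05 by edgeR, so these list counts are not read as a result about the lists.

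Meiotic regulators split by direction. Of 20 measured genes of meiotic arrest and maturation 14 were lower and 6 higher at 10 months (median log2 -0.24), and 2 were higher past 2-fold. Over all 7381 genes 3784 were lower and 3597 higher, and 279 were higher past 2-fold. Among them, named after its value was seen, was Mapk3, a kinase that helps hold the metaphase arrest downstream of Mos, at 161.5 CPM at 10 months and 74.3 at 6 months (adjusted p = 0.454 in edgeR). Cdc20, the activator of the anaphase-promoting complex, was at a median of 371 CPM (239 to 495) and 224 CPM (108 to 313; log2 -0.77, adjusted p = 0.267), and its annotation overlaps Elovl1. Of 29 spindle checkpoint and chromosomal passenger genes 1 was lower past 2-fold, Kif2c, a microtubule-depolymerising kinesin, at 109 CPM (69.2 to 142) and 52.5 CPM (26.2 to 77.3; log2 -1.1, or -0.98 without set OWTR1, adjusted p = 0.211 in edgeR). Kif2c was also lower at 10 months in wild-type controls (log2 -1.08), knockout controls (-0.706) and knockout resveratrol oocytes (-0.694), but not in C57BL6 controls (0.26). The kinetochore motor Cenpe was at 214 and 314 CPM (log2 0.53, adjusted p = 0.418), and the list's median was -0.09. Of 11 genes of cohesin and its protectors, 8 were higher and 3 lower, with a median of 0.27 and 0 past 2-fold. Pttg1, the securin that restrains separase, was at 3350, 4060 and 4830 CPM at 6 months and at 1510, 2230 and 2780 at 10 months, without overlap (log2 -0.85, adjusted p = 0.202).

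Of 21 genes that store or degrade maternal messenger RNA 11 were higher and 10 lower, with a median of 0.04 and 0 past 2-fold. Pan2, a subunit of a deadenylase, was at a median of 235 CPM (154 to 351) and 134 CPM (98.1 to 193; log2 -0.78, adjusted p = 0.310 in edgeR). Of 11 measured genes of the DNA methylation list 9 were lower and 2 higher, 0 past 2-fold, with a median of -0.03. Over all 7381 genes 3784 were lower and 3597 higher. The list also holds genes that neither write nor erase the mark, and Tet1 and Tet2, under 10 CPM in both sums, are not among the 11. Dnmt1, the maintenance methyltransferase, was at a median of 332 CPM (216 to 522) at 6 months and 241 (138 to 329) at 10 months (log2 -0.52, adjusted p = 0.485). Dnmt3a, the de novo methyltransferase of the growing oocyte, was at 278 CPM (223 to 460) and 280 (199 to 439; log2 -0.03, adjusted p = 0.992). Of the dioxygenases that oxidise methylcytosine, Tet3 was at 628 CPM (535 to 849) and 744 (554 to 985; log2 0.19, adjusted p = 0.800). Tet1 was at 1.18 CPM (0.472 to 3.81) and 2.97 (1.48 to 6.18; log2 0.90, adjusted p = 0.463), and Tet2 at 1.82 CPM (1.17 to 5.73) and 2.91 (1.49 to 5.75; log2 0.40, adjusted p = 0.774). All 5 genes overlapped between the ages, and Dnmt3a shares its place with the antisense gene Dnmt3aos.

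Of 23 histone methylation genes 1 was higher past 2-fold, Suv39h2, a methyltransferase of histone H3 lysine 9, at a median of 75.3 CPM (18.3 to 119) at 6 months and 195 (68.5 to 362) at 10 months (log2 1.46, adjusted p = 0.312 in edgeR). It overlaps Dclre1c, which was also higher (log2 1.06), so reads in the shared stretch cannot be told apart. Over all 7381 genes 279 (3.78%) were higher past 2-fold. Suz12, a subunit of Polycomb repressive complex 2, was at 50.6 CPM (43.2 to 57.5) and 88.2 (57.4 to 122; log2 0.80, adjusted p = 0.372). Sirt1, the sirtuin most often named as a target of resveratrol, was at 9.19 CPM (4.70 to 17.2) and 9.61 (2.79 to 13.7; log2 -0.14, adjusted p = 0.935). Sirt4, a mitochondrial sirtuin, was at 46.5 CPM (36.2 to 56.2) and 30.8 (23.9 to 42.8; log2 -0.58, adjusted p = 0.471). The 6 measured members of the list of sirtuins and partners were Sirt4, Sirt6, Foxo1, Foxo3, Ppargc1b and Nmnat2. Of these 6 genes 5 were lower and 1, Foxo1, was higher, with a median of -0.18 and 0 past 2-fold, beside 3784 lower and 3597 higher of all 7381 genes. The other sirtuins stayed under 10 CPM in both sums. Among them Sirt3 and Sirt7 were higher (log2 0.545 and 0.328), and Sirt1, Sirt2 and Sirt5 were lower (-0.143, -0.112 and -0.368).

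The antioxidant list held 5 of 15 measured genes past 2-fold, 3 higher and 2 lower, around a median of 0.04, where 3.78% of all 7381 genes were past 2-fold higher and 3.37% lower. Gclm, the modifier subunit of the enzyme that limits glutathione synthesis (chromosome 3, 122245557 to 122270732, plus strand), was at 3.3, 4.82 and 8.35 CPM at 6 months and at 3.68, 34.2 and 97.9 at 10 months (log2 2.99, SE 0.52, adjusted p = 0.130 in edgeR). At least 1 oocyte of 10 months was thus as low as those of 6 months. The 2-month sums were low as well, with 12 CPM in wild-type and 6.12 in knockout oocytes, against 27.7 to 44.8 in the 6 other sums of 6 and 10 months. Txnip, the inhibitor of thioredoxin (chromosome 3, 96557957 to 96561883, plus strand), was at 1710, 2220 and 2760 CPM and at 433, 842 and 1220 CPM, without overlap (log2 -1.39, adjusted p = 0.290 in edgeR). Prdx2, Prdx6 and Gpx3, named after their values were seen, had log2 ratios of 1.04, 1.2 and -1.24.

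Of 34 measured nuclear genes of the respiratory chain and ATP synthase 25 were lower and 9 higher, with a median of -0.18 and 1 past 2-fold in each direction. Atp5o, a subunit of ATP synthase whose annotation overlaps Donson and other genes, was at 7.74 CPM (5.66 to 30.1) and 27.2 (8.31 to 46.8; log2 1.31, adjusted p = 0.237 in edgeR). Uqcr11, a subunit of complex III, was at 13.9 CPM (2.74 to 65.6) and 6.73 (1.31 to 20.4; log2 -1.37), and turned to log2 1.15 without column set MWTR1, in which it stood at 34.6 CPM against 4.57 in MWTR2. Of 28 cytosolic ribosomal protein genes 19 were lower and 9 higher (median -0.12), with 1 past 2-fold higher, Rpl17 (1.02, named after its value was seen), and 2 past 2-fold lower, beside 7.15% of all genes past 2-fold in either direction and 3784 lower and 3597 higher. Rpl34, 1 of these 2, was at 6.82 CPM (4.05 to 22.4) and 4.35 (1.06 to 6.34; log2 -1.26), with 5.63 CPM in set MWTR1 and 16.7 in MWTR2 against 4.32 and 4.3 at 10 months. Without MWTR2 its log2 ratio was -0.8, under 2-fold. Of 27 proteasome genes 14 were lower and 13 higher (median -0.25), 0 past 2-fold. Psma2, a core particle subunit, was at 983 CPM (794 to 1170) and 665 (445 to 787), without overlap (log2 -0.63, adjusted p = 0.308).

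Among 23 heat shock and endoplasmic reticulum stress genes 16 were higher and 7 lower (median 0.18). For this list and the next 2, the shares over all 7381 genes were 3597 higher and 3784 lower, with 3.78% higher and 3.37% lower past 2-fold. Pdia6, a protein disulfide isomerase, was at 93.3 CPM (58.5 to 441) and 47.9 (24.6 to 68.0; log2 -1.97, adjusted p = 0.124 in edgeR). The 6-month column sets held 83.3 and 355 CPM, and its log2 ratio was -1.24 without MWTR2 and -2.94 without MWTR1. Hsf1, the master heat shock factor, was at 331 CPM (262 to 394) and 179 (139 to 262), without overlap (log2 -0.82, adjusted p = 0.257), and Hspb1, named after its value was seen, was past 2-fold higher (1.75). Of 22 DNA repair genes 12 were higher and 10 lower (median 0.05), with Trp53bp1, the double-strand break mediator 53BP1, at 602 CPM (417 to 863) and 330 (174 to 454; log2 -1.05, adjusted p = 0.187 in edgeR). Without sets MWTR1 or OWTR1 in turn its log2 ratio was -0.77 and -0.97. H2afx, the histone variant marked at breaks, was at 52.5 and 26.6 CPM (log2 -0.94, adjusted p = 0.361). Among 18 autophagy and lysosome genes 9 were higher and 9 lower (median 0.02). Lamp1, a lysosomal membrane glycoprotein (chromosome 8, 13159161 to 13175338, plus strand), was at 16.4, 22.3 and 60.9 CPM at 6 months and at 30.3, 256 and 567 at 10 months (log2 3.45, SE 0.53, adjusted p = 0.108 in edgeR). Its 3′ end overlaps Grtp1, so reads in the shared stretch cannot be told apart. The 2-month sums of Lamp1 were also low, at 84.4 CPM in wild-type and 37.5 in knockout oocytes. Atg16l1, which places the autophagy conjugate, was at 346 and 194 CPM (log2 -0.79, adjusted p = 0.325), and the protease gene Ctsd, named after its value was seen, was past 2-fold lower (-1.05).

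Of 11 apoptosis genes 6 were lower and 5 higher (median -0.03), with Diablo, which frees caspases from their inhibitors, at 74.6 and 50.4 CPM (log2 -0.70, adjusted p = 0.370 in edgeR). Over all 7381 genes 3784 were lower and 3597 higher, with 3.37% lower and 3.78% higher past 2-fold. Of 11 genes of mitochondrial dynamics and genome 7 were lower and 4 higher (median -0.01), with the fission receptor Fis1 at 10.3 and 5.84 CPM (log2 -0.81, adjusted p = 0.454) and the ubiquitin ligase gene listed as Park2 past 2-fold lower at 14.5 and 6.12 CPM (log2 -1.02, adjusted p = 0.496), or at log2 -0.53 without set OWTR2, -1.63 without OWTR1 and -0.88 without MWTR1. The senescence and inflammation list had 2 of its 16 tested genes at 10 CPM or more, with Nfkbia, the inhibitor of NF-kappaB, at 163 and 115 CPM (log2 -0.61, adjusted p = 0.449). Of the granulosa markers 2 reached 10 CPM, Cyp19a1 (log2 0.11, levels given above) and the nuclear receptor Nr5a2, the latter at 7.56 and 10.2 CPM (log2 0.33, adjusted p = 0.735 in edgeR).

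**Figure D5:**
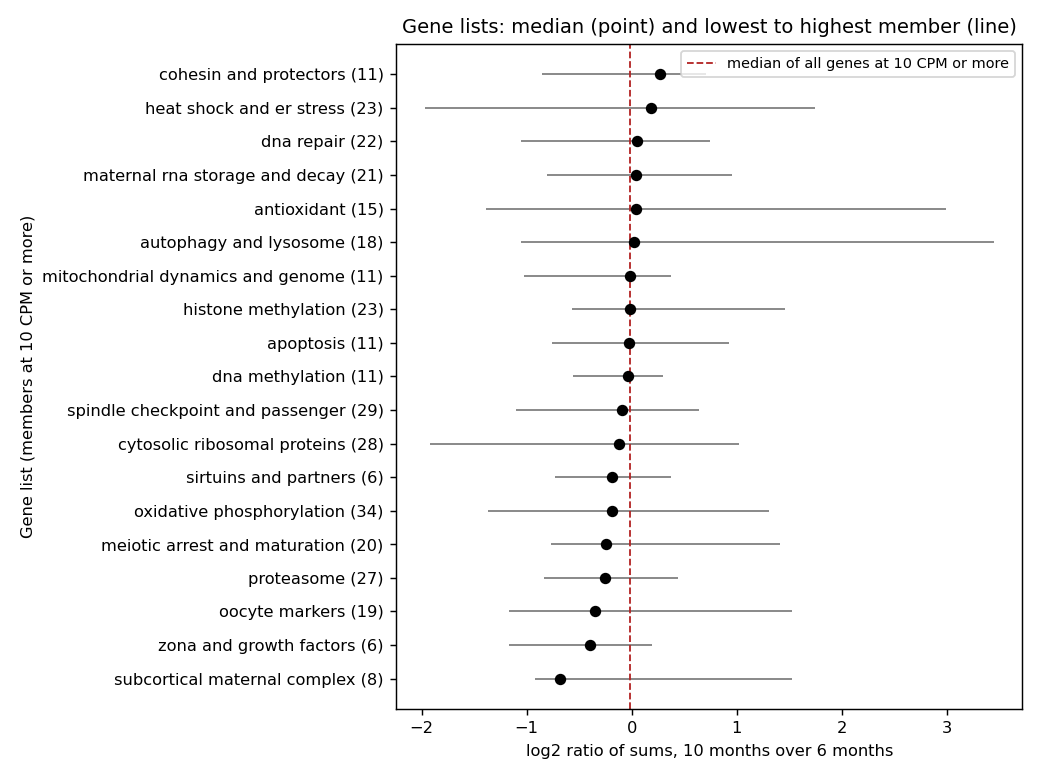
Median log2 ratio of sums (10 over 6 months, points) and range of the members (lines) for the 19 gene lists with 5 or more members at 10 CPM or more, with the number of such members in brackets; the dashed line is the median of all such genes, -0.02. The subcortical maternal complex has the lowest median, -0.68, and the cohesin list the highest, 0.27.

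The same age step was measured in strata that share no oocyte with these groups. Past 2-fold at 10 CPM or more were 118 genes in wild-type controls (1.64%), 281 in knockout controls (3.9%), 291 in knockout resveratrol oocytes (4.03%) and 662 in C57BL6 controls (8.87%). Of the 528 genes of wild-type resveratrol oocytes, 328 (62.1%) had the same sign in wild-type controls and 36 were past 2-fold there in the same direction, while 18 were so in the opposite direction. In knockout controls the 3 numbers were 371 (70.3%), 41 and 7, in knockout resveratrol oocytes 327 (61.9%), 39 and 24, and in C57BL6 controls 326 (61.7%), 61 and 30. Over all 7381 genes the share with the same sign was 59.4% in wild-type controls, 61.7% in knockout controls, 63.4% in knockout resveratrol oocytes and 62.7% in C57BL6 controls. Spearman correlations of the log2 ratios across the 7381 genes, given as a description, were 0.257, 0.353, 0.357 and 0.316 in the same order. The same direction in the 3 strata of this background was seen for 188 of the 528 genes (35.6%; 77 higher, 111 lower), near the 35% of all 7381 genes, and 5 were past 2-fold in all of them. These 5, named after their values were seen, were Uqcr11, which turned without column set MWTR1 as given above, the overlapping chromosome 12 genes Rn7s2 and Gm47305 (log2 1.00 and 1.04), Gm47295 (1.1) and RP23-220B20.6 (-1.40).

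In the fit on 10 sums, the age step of the other strata passed for 0 of 22239 genes (0%) by edgeR, with 2914 at an unadjusted p under 0.05 and 690 past the threshold by DESeq2. The age step of wild-type resveratrol oocytes differed from it for 4 genes (0.018%), all more positive here, with 1815 at an unadjusted p under 0.05 and 266 by DESeq2. For Pnpla3 the difference in log2 was 5.31 (adjusted p = 0.00733 in edgeR) beside an age step of 0.25 in the other strata, and for a3697 it was 3.86 (adjusted p = 0.0299) beside 0.18. The other 2, named after their values were seen, were RP23-419G22.6 (adjusted p = 0.00436) and RP23-23A6.7 (4.69, adjusted p = 0.00733). Without the 10-month knockout control sum the difference of Pnpla3 was at 0.059 and that of a3697 at 0.142. The difference of a3697 was also lost without the 10-month wild-type control (0.135), 10-month knockout resveratrol (0.136), 6-month knockout resveratrol (0.134) and 6-month knockout control sums (0.0588). Among further genes with the lowest p for this difference, Car10 and Ptpro had adjusted p-values of 0.0726. The count of 4 was 103 without either 2-month sum, 16 without the 6-month wild-type control sum and 1 without the 10-month knockout control sum.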

How the data were processed

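Whole-number read counts per gene, deposited by the authors and not normalized, were used for 171 single oocytes in 10 groups and, as values only, for C57BL6 control oocytes; 29 columns of other samples were not used. Per the submitters' processing notes, the mm10 genome, featureCounts, HISAT2 2.1.0 and DESeq2 are listed, without stated roles. Strand use in counting is not stated. Of 53619 symbols, 28471 matched GENCODE vM21 (GRCm38), which gave positions.

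Counts were summed per group, since no mouse is named. CPM are sums, or oocytes, scaled by TMM factors (edgeR 4.0.16, R 4.3.3). Ratios of sums had 0.5 counts added and exact conditional Poisson 95% intervals, which cover counting error only. The test was edgeR's quasi-likelihood fit (filterByExpr, minimum count 10, Benjamini-Hochberg at 0.05); DESeq2 1.42.0 was an alternative. With 1 sum per group, p-values rest on how far the other 8 sums depart from additivity, a spread that may be technical.

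Named genes are Tet1, Tet2, Tet3, Dnmt1, Dnmt3a and Sirt1, the 8 largest ratios in each direction past 2-fold at 10 CPM or more whose medians over oocytes differed 1.5-fold, 1 or 2 genes with the lowest p from each of 23 lists, and the 4 with the lowest p for each test, leaving out numbered gene models and clones. Of these, 2 genes are not reported here. Others are said to be named after their values were seen. Members and lists were chosen with earlier results of these data known.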

Additional observations from a re-analysis of the deposited data

Results flagged for a closer look

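The age step of wild-type resveratrol oocytes differed from that of the other strata, by the test of the difference in edgeR, for 4 of 22239 genes. The fitted difference in log2 was 15.3 for RP23-419G22.6, a value that depends on the count added to a group without counts and is no bound. It was 5.31 for Pnpla3, 4.69 for RP23-23A6.7 and 3.86 for a3697. In all 4 the 6-month resveratrol sum was below each of the other 8 sums while the 10-month resveratrol sum was inside their range.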

How the results depend on the processing

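The count of 528 genes past 2-fold was 193 with a minimum of 50 CPM and kept within 1.5 times of 528 under the other alternatives: RLE size factors (526), thinning to 1 depth (534), without the column MWTR23 (539), the mean (527) or median (564) over oocytes and a minimum of 5 CPM (760). It was 516 to 560 without any 1 of the 28 oocytes and 549 to 701 without any 1 column set, an alternative chosen after seeing the data. The 12 genes past the test on 10 sums became 423 without a filter on low counts, 273 without the 2-month groups, 527 by DESeq2 and 1 in an additive fit without free means, in which Pnpla3, a3697, Car10, Trim59 and Ptpro were at adjusted p-values of 0.511 to 0.883. With single sums left out the count was 3 (without the 10-month wild-type controls) to 277 (without the 2-month knockouts). The 4 differences from the other strata became 239 without a filter, 101 without the 2-month groups and 266 by DESeq2, and 1 to 103 when 1 sum was left out. The 0 genes of the other strata became 690 by DESeq2, chosen after seeing the data. The cause of these changes was not tested. Uqcr11 reversed without column set MWTR1, to log2 1.15, with its lowest value without OWTR2, at -1.92. Of 31 named genes past 2-fold with values without a column set, 12 moved by over 1.5 times without at least 1 set and 6 came under 2-fold. Without OWTR2 log2 was 3.09 for Trim59, 5.49 for Arid5b, -5.53 for Grb7, -8.14 for Ighg3 and -0.53 for Park2. Without OWTR1 it was -0.98 for Kif2c, -0.95 for Uqcr11, -0.97 for Trp53bp1 and -1.63 for Park2. Without MWTR1 it was 7.75 for Coro2b, 7.26 for Cdh20, 4.8 for a3697, -7.17 for Ighg2b, -2.09 for Rpl34, -0.99 for Gdf9, -0.77 for Trp53bp1 and -0.88 for Park2. Over all alternatives and named genes, 145 log2 values left the counting interval of the value with all oocytes and 370 did not. RLE moved the median log2 ratio of all genes by -0.00138. No paired analysis was possible because each group entered as 1 sum and the deposited column numbers do not match the numbers in the sample titles. The counting intervals leave out the spread between mice, which is not known, and this limits every value here.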
